A study of Mus musculus with 95 samples.

Results

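The matrix metalloproteinases (MMPs), the ADAMTS proteases and the tissue inhibitors of metalloproteinases (TIMPs) were followed in nerve and kidney of diabetic and non-diabetic mice with and without pioglitazone. The genes were chosen by symbol, as Mmp or Adamts followed by a number, or Timp1 to Timp4, with an FPKM above 0 in at least 5 of the 95 libraries. FPKM counts read pairs relative to transcript length and to the mapped pairs of the library, so that levels are per length and can be compared between genes. Of 46 symbols with such a name, 43 met the rule, namely 21 Mmp, 18 Adamts and 4 Timp genes. They stood among 25407 symbols, of which 17769 were above 0 in at least 5 libraries. Adamts10, Mmp1a and Mmp1b were left out, since they were above 0 in 1 library or none.

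RNA-Seq was done on sciatic nerve (SCN), dorsal root ganglia (DRG), isolated kidney glomeruli and kidney cortex of male mice on the C57BLKS background, labelled BKS.Cg-m +/+ Leprdb/J, which were 16 weeks old. In each tissue, db/db PIO mice carried the leptin receptor mutation on both chromosomes and had received pioglitazone, an agonist of the nuclear receptor PPARG, at 15 mg/kg for 11 weeks. The db/db mice carried the same mutation and received no drug, db/+ PIO mice carried it on a single chromosome and received the drug, and db/+ mice carried it on a single chromosome without drug. There were 6 libraries in each of the 16 groups, except for 5 in DRG db/db, each stated to be a biological replicate. The mutation was present in the whole animal and the drug was given to the whole animal, so that effects within a tissue and effects of body weight or blood glucose cannot be told apart. The comparisons ask which of these genes differ with diabetes (db/db with db/+), with the drug in diabetic mice (db/db PIO with db/db) and in non-diabetic mice (db/+ PIO with db/+), and with diabetes under the drug (db/db PIO with db/+ PIO). They share groups, so that a gene's changes in different comparisons of a tissue are not independent.

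MMPs are zinc proteases that cleave collagens, laminins, elastin and proteoglycans, and that release or inactivate cytokines held in the matrix. They are made as inactive proenzymes, are activated by furin-like convertases, by plasmin or by each other, and are held in check by the TIMPs, which bind the active site. ADAMTS proteases are secreted relatives with thrombospondin repeats, among them the proteases of the large proteoglycans (Adamts1, Adamts4, Adamts5, Adamts8 and Adamts15) and the enzymes that trim the N-terminal propeptide off fibrillar procollagens (Adamts2, Adamts3 and Adamts14). In diabetes, turnover of the basement membrane and matrix is studied in the glomerulus and in the endoneurium. Here transcripts were measured, not proenzyme, activity or binding.

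An exact 0 was read as missing, because genes that every cell uses were often listed at 0, such as Gapdh in 34 and Actb in 74 of 95 libraries, and Tbp in all 95. Among the 43 genes, entries at 0 were more frequent at higher levels in SCN, DRG and glomeruli, while in cortex none of them had a median of 10 FPKM or more. In SCN, the 17 genes with a median below 1 FPKM were at 0 in 33.8% of the libraries on average, the 16 genes from 1 to below 10 FPKM in 46.6% and the 6 genes at 10 FPKM or more in 80.6%. In glomeruli, these shares were 34.3%, 42.1% and 71.4%, and in DRG 29.1%, 45.6% and 55.4%. In cortex, the 32 genes below 1 FPKM were at 0 in 36.98% and the 8 genes from 1 to below 10 FPKM in 32.3%. Over all genes, the shares from the lowest to the highest level were 49.1%, 48.4% and 60.1% in SCN and 48.8%, 46.7% and 59.4% in glomeruli. They were 45.8%, 47.3% and 60.1% in DRG and 46.2%, 49.8% and 62.4% in cortex. The part of missing entries in the group differences below was not tested. When each 0 was entered as a value instead, 6 of the 41 calls on these genes were kept, 32 were lost and 3 turned round. Under quantile normalization of the values above 0, 18 were kept, 21 were lost and 2 turned round. In SCN, the Schwann cell genes Mbp, Prx and Sox10 had values, while Pmp22, Egr2, S100b and Mag were at 0 in every SCN library. In DRG, 7 of 10 sensory neuron markers were at 0 in every library (Prph, Tac1, Scn10a, Scn9a, Nefh, Isl1 and Avil), and in glomeruli the podocyte markers Nphs1, Wt1, Ptpro and Magi2 were, so that the tissue labels could be checked on the remaining markers only. Total FPKM per library ranged from 140164 to 269263 in both nerve tissues, was at most 193784 in glomeruli and was at least 184748 in cortex.

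**Figure D1:**
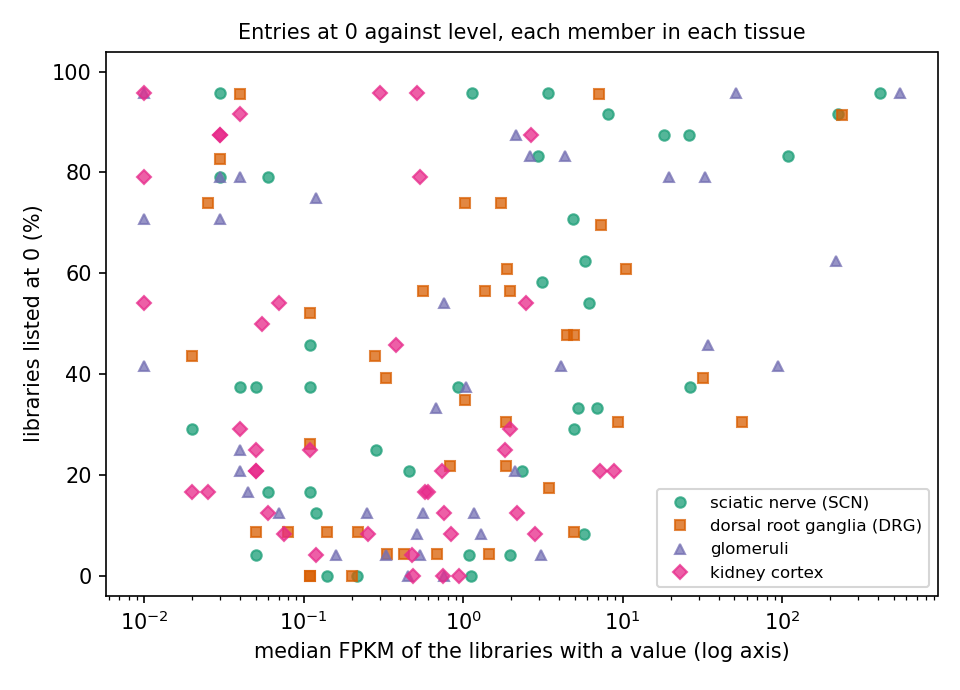
Share of libraries in which a gene was listed at 0 (vertical axis, %) against its median FPKM over the libraries with a value (horizontal axis, log scale), one point for each of the 43 genes in each tissue where it had a value. Points at the upper right are genes with high values in few libraries, such as Timp3 in glomeruli with 545.43 FPKM in 1 of 24 libraries.

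The genes that changed included neighbours. On chromosome 9 of mm9, Mmp13 (7272514 to 7283333), Mmp12 (7344381 to 7369499) and Mmp3 (7445822 to 7455972) lie on the plus strand. They start a row of 8 of the 43 genes that goes on with Mmp10, Mmp8, Mmp27, Mmp20 and Mmp7 and ends at 7699585. Positions were looked up for the 43 genes only, so other Mmp genes, such as Mmp1a and Mmp1b, were not placed. Adamts15 (30706740 to 30730037, minus strand) and Adamts8 (30750147 to 30771423, plus strand) form a second pair on the same chromosome. The 100 bases before the transcription start are shown for Mmp3, which moved in SCN, and for Mmp12 and Mmp13, which moved in kidney, since promoters of this row are known for binding sites of AP-1, the Fos and Jun heterodimer. The sequences are RefSeq's, on the plus strand of GRCm38.p6, which is not the build of the files. Motifs were searched on both strands, and capitals mark every match. TGANTCA, with N for any base, takes in TGACTCA and TGAGTCA, the sites to which Fos and Jun proteins bind as a dimer, and is looser than these. TATAAA stands for the box upstream of many inducible genes at which transcription is set up.
Mmp3, chr9:7445722-7445821: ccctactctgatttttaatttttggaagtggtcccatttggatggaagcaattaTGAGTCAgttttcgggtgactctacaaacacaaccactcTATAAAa
Mmp13, chr9:7272414-7272513: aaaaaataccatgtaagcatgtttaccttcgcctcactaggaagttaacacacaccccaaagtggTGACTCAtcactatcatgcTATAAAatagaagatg
Mmp12, first start site, chr9:7344297-7344396: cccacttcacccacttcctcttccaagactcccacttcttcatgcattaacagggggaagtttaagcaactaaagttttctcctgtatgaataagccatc
Mmp12, second start site, chr9:7347274-7347373: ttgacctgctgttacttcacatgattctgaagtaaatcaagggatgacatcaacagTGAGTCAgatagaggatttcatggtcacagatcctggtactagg
The AP-1 match began 46 bases before the start in Mmp3, 35 bases before it in Mmp13 and 44 bases before the second start site of Mmp12, and the first start site of Mmp12 had neither motif in this window. Of the 43 genes, 30 had promoter entries, 33 in all. TGANTCA was found within 250 bases before the start in 6 of these 33 entries (Mmp3, Mmp7, Mmp10, Mmp12, Mmp13 and Mmp20), that is 18.2%, and in 6.75% of all 32851 promoter entries. The match in Mmp20 was TGAATCA, and the others had C or G in the middle. TATAAA was found in 7 of the 33 entries (21.2%) and in 12.4% of all entries. These are letter matches and say nothing of binding.

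Timp2 and Timp3 were among the most abundant of these genes where a value was given, while Timp1 and Timp4 were not. Timp2, which also takes part in the activation of pro-MMP2, had 237.98 FPKM in a single db/+ SCN library and 207.27 FPKM in a single db/+ PIO library, and was at 0 in the other 22 SCN libraries. In glomeruli Timp2 had a value in 9 of 24 libraries, from 160.95 to 245.58 FPKM. In cortex it had a value in 19 of 24 libraries, from 5.99 to 10.93 FPKM, all below those of the glomeruli. Timp3, the TIMP that binds to the matrix, had 39.48 to 61.40 FPKM in 16 of 23 DRG libraries, 411.30 FPKM in 1 SCN library and 545.43 FPKM in 1 glomerular library, and was at 0 in all 24 cortex libraries. Timp2 and Timp3 were called in no comparison in which they could be tested, with log2 fold changes between -0.18 and 0.04 for Timp2 in glomeruli and cortex and between -0.18 and 0.17 for Timp3 in DRG.

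Among the proteases of db/+ mice, the highest medians were those of Mmp15 and Mmp14 in SCN, of Mmp15 and Mmp24 in DRG, of Adamts1 in glomeruli, and of Adamts1 and Mmp11 in cortex. Mmp14 and Mmp15 are membrane-anchored MMPs, and Mmp14 activates pro-MMP2. In SCN, Mmp14 had 18.82 to 39.45 FPKM in 4 db/+ libraries, and Mmp15 had a value in 1 library of each group, 97.34 FPKM in db/db PIO, 104.16 FPKM in db/db, 132.22 FPKM in db/+ PIO and 113.05 FPKM in db/+. Mmp24, a membrane-anchored MMP of neural tissue, had 8.36 to 11.87 FPKM in 9 of 23 DRG libraries and was at 0 in every library of the other tissues. Adamts1 had 50.90 to 85.92 FPKM in 3 db/+ glomerular libraries, against 7.27 to 7.63 FPKM in 4 db/+ cortex libraries. The gelatinase Mmp2 was at 0 in all 24 SCN libraries, so that nothing can be said of it in that tissue.

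Of the 43 genes, 19 reached an FPKM of 1 in at least 5 DRG libraries, 14 did so in SCN as well as in glomeruli, and 12 in cortex. A test required 3 or more values in each group. In at least 1 comparison of 2 groups, 25 genes could be tested and 15 were called, meaning a Benjamini-Hochberg adjusted p below 0.05 in limma on log2(FPKM + 1). In all, 33 of 160 such tests passed, with calls on 4 genes in DRG and on 6 genes in each of the other tissues. A gene that passed the minimum only through the group in which it was high had to differ, so these counts are not evidence on the 43 genes as a set. Fold changes are on the log2(FPKM + 1) scale, which understates those of low genes, and are followed by their standard error (SE). P-values set a difference between group means against the spread of libraries within groups. That spread was pooled over all groups of a fit and moderated over all genes. In bulk tissue, fewer cells of a type and less RNA per cell cannot be told apart.

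**Figure D2:**
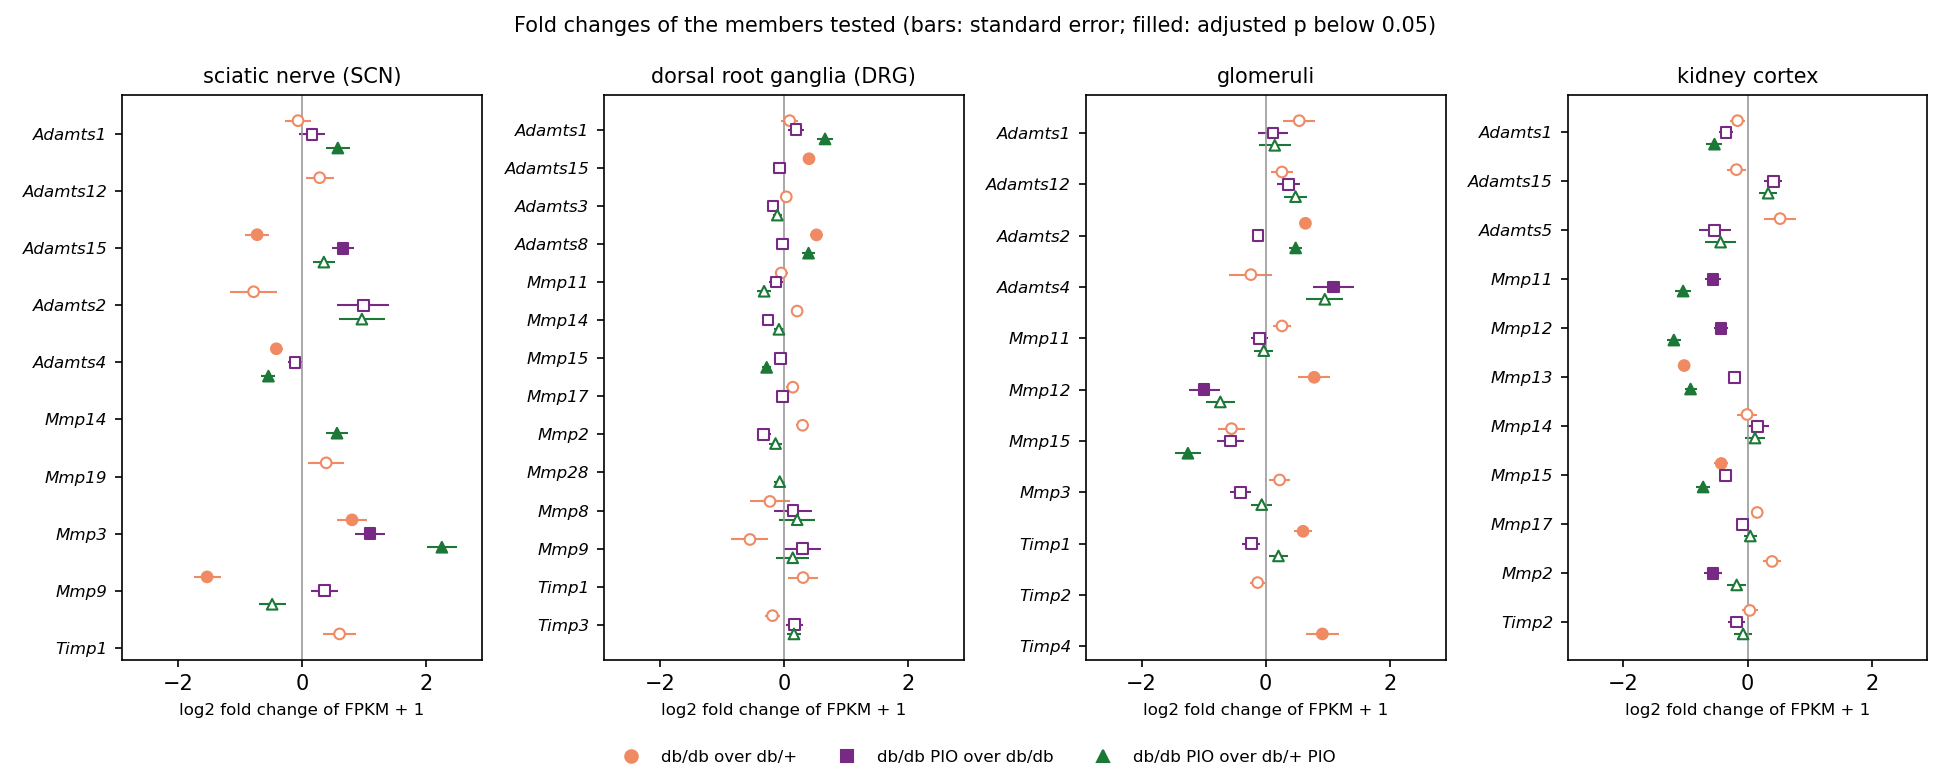
Log2 fold changes of FPKM + 1 (horizontal axis) with SE for every gene tested in SCN, DRG, glomeruli and cortex, for db/db PIO over db/+ PIO (triangles), db/db PIO over db/db (squares) and db/db over db/+ (circles), with filled symbols where the adjusted p was below 0.05. Mmp3 and Mmp9 in SCN lie farthest apart, at 2.25 and -1.53, and all filled symbols in cortex lie below 0.

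In diabetic SCN, Mmp9 and the proteoglycan proteases Adamts4 and Adamts15 were lower and the stromelysin Mmp3 was higher than in db/+ nerve, 4 of 9 genes tested, against 14.9% of all genes tested in that comparison. Mmp9, the gelatinase of leukocytes and of injured nerve, had a value in every SCN library. It had 0.27 to 0.68 FPKM in db/db (median 0.40), against 1.43 to 6.12 FPKM in db/+ (median 3.26). Every db/db library lay below every db/+ library, and the means were 0.433 ± 0.149 and 3.42 ± 1.79 FPKM (SD, n = 6 each). The log2 fold change was -1.53 ± 0.22 (SE), with an adjusted p of 5.54e-05.

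Mmp3, which cleaves proteoglycans and laminin and activates other pro-MMPs, had 0.58 to 2.98 FPKM in db/db SCN (median 2.09), against 0.03 to 1.44 FPKM in db/+ (median 0.48). It rose by 0.81 ± 0.23 (adjusted p = 0.0249), with groups that overlapped. This call ended without db/+ replicate 1 or 5 or db/db replicate 1, 4 or 6 (5 libraries, adjusted p 0.0523 to 0.063), and in a fit of the compared groups alone (adjusted p = 0.0674). Adamts4 had 1.50 to 1.99 FPKM in db/db, against 1.79 to 3.32 FPKM in db/+, and fell by 0.41 on the log2 scale (SE 0.11, adjusted p = 0.0137). Adamts15 had 1.24, 1.28, 1.59, 1.60 and 2.30 FPKM in 5 db/db libraries, against 2.38, 2.48, 3.83 and 4.75 FPKM in 4 db/+ libraries, with no overlap, and fell by 0.72 (SE 0.19, adjusted p = 0.019). Without db/+ replicate 5 the change of Adamts15 was -0.58 (adjusted p = 0.058). Under quantile normalization of the values above 0 both genes turned to the positive side, Adamts4 to 0.29 and Adamts15 to 0.18, neither past the threshold, while the median of all genes tested was 0.513, beside 0.018 without this rescaling.

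In db/db nerve under pioglitazone, Mmp3 and Adamts15 were higher than in untreated db/db nerve, 2 of 6 genes tested, with 10.1% of all genes called and 6.5% called as higher. Mmp3 had 3.44, 3.52, 4.26, 6.83 and 7.78 FPKM in 5 db/db PIO libraries, above all 6 db/db libraries, and was at 0 in the sixth. Its mean was 5.17 ± 2.01 FPKM in db/db PIO (SD, n = 5) and 1.93 ± 1.02 FPKM in db/db (SD, n = 6), and it rose by 1.10 ± 0.25 (adjusted p = 0.00641). With a pseudocount of 0.1 the adjusted p was 0.0673. Adamts15 had 2.05, 2.52, 2.98, 3.12 and 5.37 FPKM in db/db PIO, overlapping the db/db libraries in a single value, and rose by 0.66 ± 0.18 (adjusted p = 0.0255). Its call ended without db/db replicate 2 or 3 or db/db PIO replicate 2 or 3 (4 libraries, adjusted p 0.0506 to 0.0651). Mmp9 had 0.39 to 2.22 FPKM in db/db PIO (median 0.72) and did not pass (0.36 ± 0.22, adjusted p = 0.311).

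Without diabetes, pioglitazone called 0 of 12 genes in SCN, and 0.0778% of all genes, while 5 of the 12 and 659 of all 5142 genes had an unadjusted p below 0.05 in limma. Mmp9 was among these, with 0.94 to 2.30 FPKM in db/+ PIO (median 1.63), overlapping db/+ (log2 fold change -0.69 ± 0.22, adjusted p = 0.24). The drug effect differed between genotypes for Mmp3 (difference of log2 fold changes, db/db minus db/+, 1.45 ± 0.34, adjusted p = 0.0198), Adamts15 (1.08 ± 0.26, adjusted p = 0.0255) and Mmp9 (1.05 ± 0.31, adjusted p = 0.0435), 3 of 6 genes tested, against 6.23% of all genes, 3.98% in the positive direction. For each of them the change was positive in db/db and negative in db/+ mice. The difference for Mmp9 was lost when any of 18 libraries was left out (adjusted p 0.0503 to 0.0825), that is each library but db/db PIO replicates 1 and 5, db/db replicate 4, db/+ PIO replicate 4 and db/+ replicates 5 and 6. It was also lost without the minimum level (0.0687), and that of Mmp3 with a pseudocount of 0.1 (0.0514).

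Diabetic and non-diabetic nerve under the drug differed in 4 of 7 genes tested, beside 33.8% of all genes. Mmp3 had the largest change of any Mmp, Adamts or Timp gene tested in a comparison of 2 groups, 3.44 to 7.78 FPKM in db/db PIO against 0.08 to 0.45 FPKM in db/+ PIO (median 0.24), with no overlap and a log2 fold change of 2.25 ± 0.25 (adjusted p = 8.02e-07). Adamts4 was lower, with 1.26, 1.32, 1.47, 1.60 and 1.85 FPKM in db/db PIO against 1.98 to 3.30 FPKM in db/+ PIO (-0.54 ± 0.11, adjusted p = 0.000829). Adamts1, a protease of versican and aggrecan, had 5.23 to 9.46 FPKM in db/db PIO and 2.95 to 5.58 FPKM in db/+ PIO and was higher by 0.58 ± 0.19 (adjusted p = 0.0252). Mmp14 had 26.35, 31.02, 36.03 and 40.99 FPKM in db/db PIO against 19.37, 20.17, 20.95, 23.56 and 27.24 FPKM in db/+ PIO (0.56 ± 0.18, adjusted p = 0.028), and turned to -0.38 when zeros were entered as values. The calls of Adamts1 (4 libraries, adjusted p 0.0547 to 0.0653) and Mmp14 (5 libraries, 0.0546 to 0.0874) ended when single libraries were left out. These were db/+ PIO replicates 1 and 3 and db/db PIO replicates 5 and 6 for Adamts1, and db/+ PIO replicates 1, 3 and 6 and db/db PIO replicates 2 and 3 for Mmp14.

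**Figure D3:**
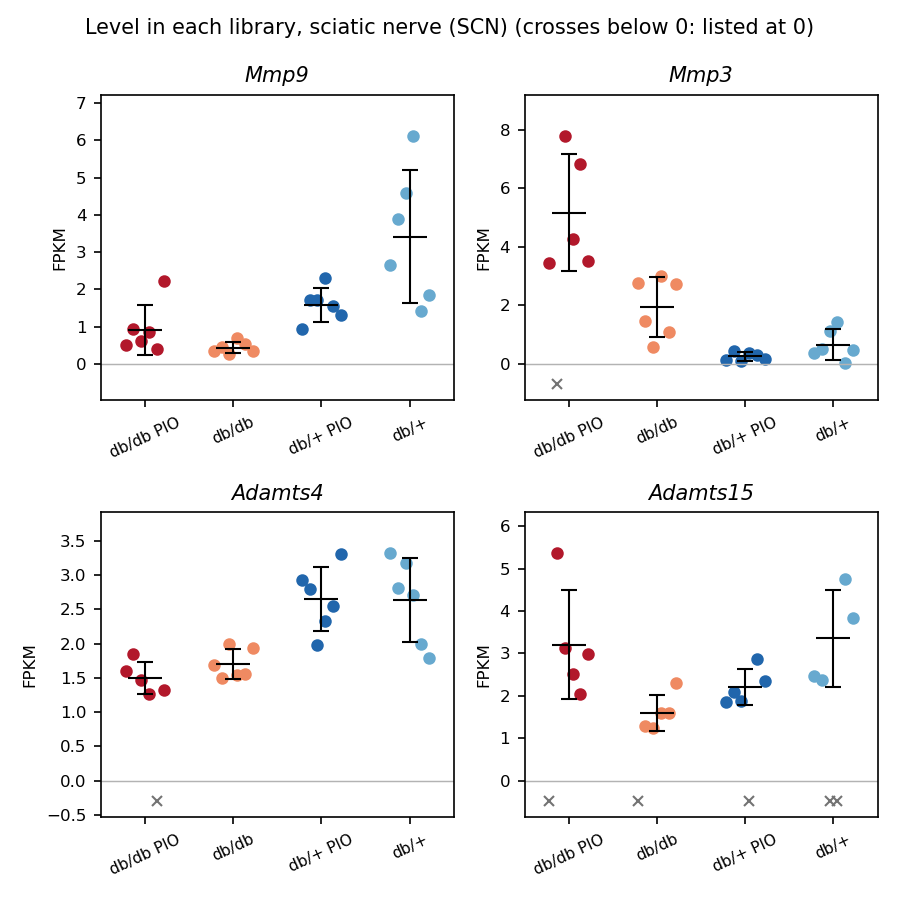
FPKM (vertical axis) of Mmp9, Mmp3, Adamts4 and Adamts15 in each SCN library of the groups db/db PIO, db/db, db/+ PIO and db/+, with mean and SD of the libraries with a value and crosses for libraries listed at 0. Mmp9 was highest in db/+ (1.43 to 6.12) and Mmp3 in db/db PIO (3.44 to 7.78).

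Other genes could be tested in SCN in part or not at all. Mmp12, the macrophage elastase, was low in both non-diabetic groups, with 0.01 to 0.25 FPKM in the 6 db/+ PIO libraries and 0.01 to 0.34 FPKM in the 6 db/+ libraries. In db/db PIO it had 29.52 and 4.09 FPKM and was at 0 in 4 libraries, and in db/db it had 7.14 FPKM and was at 0 in 5. All 3 diabetic libraries with a value lay above the 12 non-diabetic ones. Timp1, the inducible TIMP, had 14.20 and 16.45 FPKM in db/db PIO with 4 libraries at 0, 5.83, 6.29, 8.87 and 10.04 FPKM in db/db, 1.91 to 6.56 FPKM in db/+ PIO, and 3.02, 4.19, 4.67, 4.76 and 7.36 FPKM in db/+. Its difference between db/db and db/+ did not pass (0.61 ± 0.27, adjusted p = 0.141), and db/db PIO had too few values. Timp4 had 22.22 FPKM in 1 db/db PIO library, 3.24, 4.87 and 6.90 FPKM in db/+ PIO and 3.72, 4.54 and 9.76 FPKM in db/+, and was at 0 in all 6 db/db libraries. The procollagen protease Adamts2 had 12.32, 12.88 and 12.94 FPKM in db/db PIO, 5.61, 5.93 and 6.18 FPKM in db/db, 3.87 to 10.46 FPKM in db/+ PIO and 5.28 to 22.27 FPKM in db/+, and passed in no SCN comparison (lowest adjusted p 0.0597, db/db PIO with db/+ PIO).

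Regulators of the proteases moved in the same nerves. Of 24 listed activators, inhibitors and receptors, 4 were higher and 1 lower of 8 tested in db/db over db/+, among them the urokinase receptor gene Plaur (log2 fold change 1.57) and urokinase itself, Plau (1.22). A2m, a protease inhibitor that traps MMPs, was lower (-0.97, adjusted p = 0.000502). Under pioglitazone, 1 of 7 was called in db/db nerve, Spock2 (-0.48, adjusted p = 0.0342). Of 20 matrix substrates 3 could be tested, and versican (Vcan), a substrate of the proteoglycan-cleaving ADAMTS proteases, was lower in db/db (4.38 ± 0.397 against 10.2 ± 1.56 FPKM, -1.05, adjusted p = 4.81e-08) while neurocan (Ncan) was higher (0.80). Of 15 inducers, which are AP-1 and Ets factors and cytokines, 2 of 9 were higher in db/db, Junb (0.50) and Fosl2 (0.30). The median log2 fold change was 0.46 over the 8 regulators and 0.30 over the 9 inducers, beside 0.018 over all genes tested. At most 2 ADAM proteases could be tested in a comparison of SCN groups, with 0 called and 1 at an unadjusted p below 0.05 in limma (pioglitazone in db/+).

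Marker genes of other cells also differed between the SCN groups. In the summed levels here and below, an entry at 0 added nothing. The sums therefore also depend on how many markers of a list were at 0 in a library. Of 6 mast cell markers tested, 4 were lower and 1 (Kit) was higher in db/db, and the summed level of the list was 3.66 to 47.4 FPKM in db/db and 52.42 to 123.25 FPKM in db/+. Under the drug, 3 of 6 were higher in db/db PIO than in db/db, and the sum was 51.6 to 96.37 FPKM in db/db PIO and 8.54 to 74.9 FPKM in db/+ PIO. Of 7 macrophage markers, 5 were higher in db/db PIO than in db/+ PIO, with sums of 17.03 to 764.02 FPKM in db/db PIO, 19.63 to 195.49 FPKM in db/db, 78.84 to 235.34 FPKM in db/+ PIO and 114.06 to 347.72 FPKM in db/+, and Cd68 was at 0 in every SCN library. The neutrophil markers summed to 37.41 to 472.13 FPKM in db/db PIO, 5.86 to 164.23 FPKM in db/db, 0.37 to 5.05 FPKM in db/+ PIO and 0.83 to 4.72 FPKM in db/+. Skeletal muscle markers summed to 16.36 to 509.81 FPKM in db/db PIO, 14.54 to 291.87 FPKM in db/db, 15.87 to 47.47 FPKM in db/+ PIO and 21.97 to 27.57 FPKM in db/+. Adipocyte markers, of which Cidec, Cfd, Retn and Pnpla2 were at 0 in every SCN library, summed to 7230 to 16830 FPKM in db/db PIO, 2428 to 8591 FPKM in db/db, 1.94 to 9665 FPKM in db/+ PIO and 0 to 2874 FPKM in db/+, and the single one tested between db/db PIO and db/db, Fabp4, was higher (1.44, adjusted p = 0.00397). Fibroblast markers had median sums of 254 FPKM in db/db PIO, 377 FPKM in db/db, 311 FPKM in db/+ PIO and 1158 FPKM in db/+. The part of these cells in the changes of Mmp3, Mmp9, Adamts4 and Adamts15 was not tested.

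In DRG, the changes were small and none was called between treated and untreated mice. In db/db over db/+, 2 of 12 genes passed, both higher and both neighbours on chromosome 9, beside 4.13% of all genes and 2.79% called as higher. Adamts8 had 3.63, 5.76, 6.05, 6.20 and 6.27 FPKM in db/db, against 3.08, 3.47, 3.51, 3.75 and 3.77 FPKM in db/+, with 4 of 5 db/db libraries above all db/+ libraries (0.53 ± 0.11, adjusted p = 0.0108). Adamts15 had 5.07, 5.47, 5.50 and 6.47 FPKM in db/db against 3.72, 3.94 and 4.32 FPKM in db/+, without overlap (0.41 ± 0.08, adjusted p = 0.023). It fell in db/db SCN and rose in db/db DRG, and the difference between these tissues was not tested.

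Pioglitazone called 0 of 12 genes in db/db DRG and 0 of 11 in db/+ DRG, and 0% of all genes in both. At an unadjusted p below 0.05 in limma there were 3 of the 12 genes and 325 of all genes in db/db, and 1 of the 11 genes and 403 of all genes in db/+. Mmp2, for example, had 1.55, 1.57, 1.70, 1.82 and 1.87 FPKM in db/db PIO against 1.97, 2.10, 2.73 and 2.78 FPKM in db/db, without overlap (-0.32 ± 0.11, adjusted p = 0.335). Under the drug, diabetic and non-diabetic DRG differed in 3 of 11 genes, with 8.64% of all genes called. Adamts1 had 3.41 to 5.05 FPKM in db/db PIO (median 4.08) against 1.58, 1.68, 2.86 and 2.92 FPKM in db/+ PIO (0.66 ± 0.13, adjusted p = 0.00365). Adamts8 had 4.99 to 5.90 FPKM against 3.16, 3.20, 3.81, 4.35 and 4.97 FPKM (0.40 ± 0.11, adjusted p = 0.0242). Mmp15 had 25.02, 29.42, 30.08, 31.59 and 31.84 FPKM in db/db PIO against 33.57, 35.33, 36.96 and 37.98 FPKM in db/+ PIO (-0.28 ± 0.07, adjusted p = 0.0318). None of these 3 called genes overlapped between the groups, and overlap was not counted over all genes.

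The DRG calls were not equally firm. Both calls between db/db and db/+ ended under quantile normalization of the values above 0 (adjusted p 0.434 for Adamts8 and 0.767 for Adamts15), and that of Adamts15 also under quantile normalization of the tested genes alone (0.053). The Adamts8 call under the drug ended without db/+ PIO replicate 1 or 2 (adjusted p 0.0565 and 0.0603), and that of Mmp15 ended without db/+ PIO replicate 2, 3 or 4 or db/db PIO replicate 6 (0.0507 to 0.0684) and under median-of-ratios rescaling (0.103). With zeros entered as values Mmp15 turned to 0.64, since 2 of 6 db/+ PIO and 1 of 6 db/db PIO libraries were listed at 0. Mmp9 overlapped between all DRG groups, with 0.22 to 2.97 FPKM in db/db PIO, 0.26 to 1.23 FPKM in 4 db/db libraries, 0.24 to 1.68 FPKM in db/+ PIO and 0.23 to 2.15 FPKM in db/+. Timp1 had 2.06 and 2.48 FPKM in db/db PIO, 1.49, 1.90, 2.22 and 2.25 FPKM in db/db, 0.91 to 3.61 FPKM in db/+ PIO and 0.76, 1.26, 1.45 and 2.28 FPKM in db/+. Mmp12 was at most 0.05 FPKM in any DRG library. Of 12 matrix substrates tested in DRG, 3 were lower in db/db over db/+, Ncan (-0.44), Nid1 (-0.32) and Hapln1 (-0.30), with a median of -0.32 beside 0.011 over all genes, and 1 of 7 inducers was higher, Jund (0.60, adjusted p = 0.0314). Adam17, the sheddase of TNF, was lower in db/db PIO than in db/+ PIO (-0.47, adjusted p = 0.0249). Of 8 macrophage markers, 3 were higher in db/db, and their sum was 45.41 to 71.4 FPKM in db/db and 17.24 to 66.89 FPKM in db/+. Skeletal muscle markers summed to up to 711.17 FPKM in a db/db DRG library, and adipocyte markers to 28.62 to 186.69 FPKM in db/db PIO, 4.31 to 44.95 FPKM in db/db, 10.01 to 85.29 FPKM in db/+ PIO and 2.69 to 39.38 FPKM in db/+. The part of these cell types in the results was not tested.

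In diabetic glomeruli, 4 of 11 genes tested passed and all 4 were higher, with 25.4% of all genes called and 16.5% called as higher. Adamts2, which trims procollagens I to III, had 1.40 to 2.47 FPKM in db/db, against 0.72 to 1.15 FPKM in db/+. All 6 db/db libraries lay above all 6 db/+ libraries, with means of 2.10 ± 0.402 and 0.975 ± 0.144 FPKM (SD) and a log2 fold change of 0.64 ± 0.10 (adjusted p = 8.25e-05). Timp1 had 1.06, 1.89, 2.11, 2.18 and 2.26 FPKM in db/db, against 0.32 to 1.17 FPKM in db/+ (median 0.98), and rose by 0.60 ± 0.14 (adjusted p = 0.00367). Only the lowest db/db library lay within the db/+ range. The change of Timp1 was 0.43 (adjusted p = 0.129) under quantile normalization of the values above 0 and 0.37 (adjusted p = 0.1) when the tested genes alone were rescaled.

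Timp4, an inhibitor of narrow tissue distribution, had 0.88, 1.25, 2.31 and 4.51 FPKM in db/db, against 0.37, 0.40, 0.64 and 0.95 FPKM in db/+ (0.91 ± 0.26, adjusted p = 0.0184), and each group had 2 libraries at 0. All 5 glomerular libraries in which Timp4 reached 1 FPKM were diabetic. It thus passed the minimum only through the genotype in which it was high, and its call is no independent result. In a fit of the compared groups alone its adjusted p was 0.0745. Mmp12 had 0.55, 0.61, 1.36, 1.47 and 4.32 FPKM in db/db against 0.21, 0.27, 0.34, 0.48 and 0.69 FPKM in db/+ (0.78 ± 0.26, adjusted p = 0.0318). The groups overlapped, and the value of 4.32 FPKM stood apart from the other db/db libraries. Without that library (db/db replicate 1) the change was 0.49 (adjusted p = 0.0956), and the call also ended without db/db replicate 2 or 3 or db/+ replicate 4, 5 or 6 (adjusted p from 0.0501) or in a fit of these groups alone (0.0876).

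With pioglitazone, Mmp12 was lower and Adamts4 higher in db/db glomeruli, 2 of 9 genes tested, with 23.1% of all genes called. Mmp12 had 0.05 to 0.40 FPKM in db/db PIO (median 0.19), below every db/db library with a value, and fell by 0.99 on the log2 scale (SE 0.25, adjusted p = 0.00691). In db/+ PIO, Mmp12 had 0.38 to 2.37 FPKM (median 0.88), against 0.21 to 0.69 FPKM in db/+, and the drug effect differed between genotypes (db/db minus db/+, -1.51 ± 0.35, adjusted p = 0.00916). It was the single gene of 9 to do so, with 9.71% of all genes called. All 6 glomerular libraries in which Mmp12 reached 1 FPKM were db/db or db/+ PIO, the groups in which it was high. The gene thus passed the minimum only through these groups, and its glomerular calls are no independent result. Adamts4 had 1.70, 2.32, 7.39, 7.59 and 8.71 FPKM in db/db PIO against 1.30, 1.39, 1.78 and 2.44 FPKM in db/db (1.09 ± 0.33, adjusted p = 0.0238). Of the db/db PIO libraries, 3 lay far above db/db and 2 overlapped with it. This call ended without any of these 3 libraries (replicates 1, 2 and 3) or without db/db replicate 1 or 3 (adjusted p 0.0536 to 0.0617), and in a fit of these groups alone (0.0739).

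The collagenase Mmp13, next to Mmp12 on chromosome 9, did not reach the minimum level in glomeruli and was not tested. It had 0.02, 0.02 and 0.08 FPKM in db/db PIO with 3 libraries at 0, against 0.26 to 2.50 FPKM in db/db, 0.34 to 2.14 FPKM in db/+ PIO and 0.22 to 3.57 FPKM in db/+. All db/db PIO values thus lay below those of the other 18 libraries. Timp1 had 1.15, 1.17, 1.52, 1.63 and 1.77 FPKM in db/db PIO and did not pass against db/db (-0.23 ± 0.15, adjusted p = 0.263). Timp4 had 6.06 and 6.30 FPKM in db/db PIO with 4 libraries at 0, and could not be tested there.

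In db/+ glomeruli the drug called 0 of 11 genes and 0% of all genes, with 1 of the 11 and 118 of all genes at an unadjusted p below 0.05 in limma. Between db/db PIO and db/+ PIO glomeruli, 2 of 9 genes passed, beside 8.41% of all genes. Mmp15 had 0.71 to 1.84 FPKM in db/db PIO (median 1.15), against 3.71 to 4.48 FPKM in db/+ PIO (median 4.24), with no overlap (-1.25 ± 0.21, adjusted p = 0.000641). In untreated mice it had 1.30, 1.39, 1.58, 3.06 and 4.87 FPKM in db/db and 1.86 to 5.49 FPKM in db/+, which did not pass (-0.55 ± 0.22, adjusted p = 0.0742). Adamts2 was higher, with 1.44, 1.52, 1.92, 2.00 and 2.31 FPKM in db/db PIO against 0.85 to 1.19 FPKM in 5 db/+ PIO libraries (0.48 ± 0.11, adjusted p = 0.00629).

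**Figure D4:**
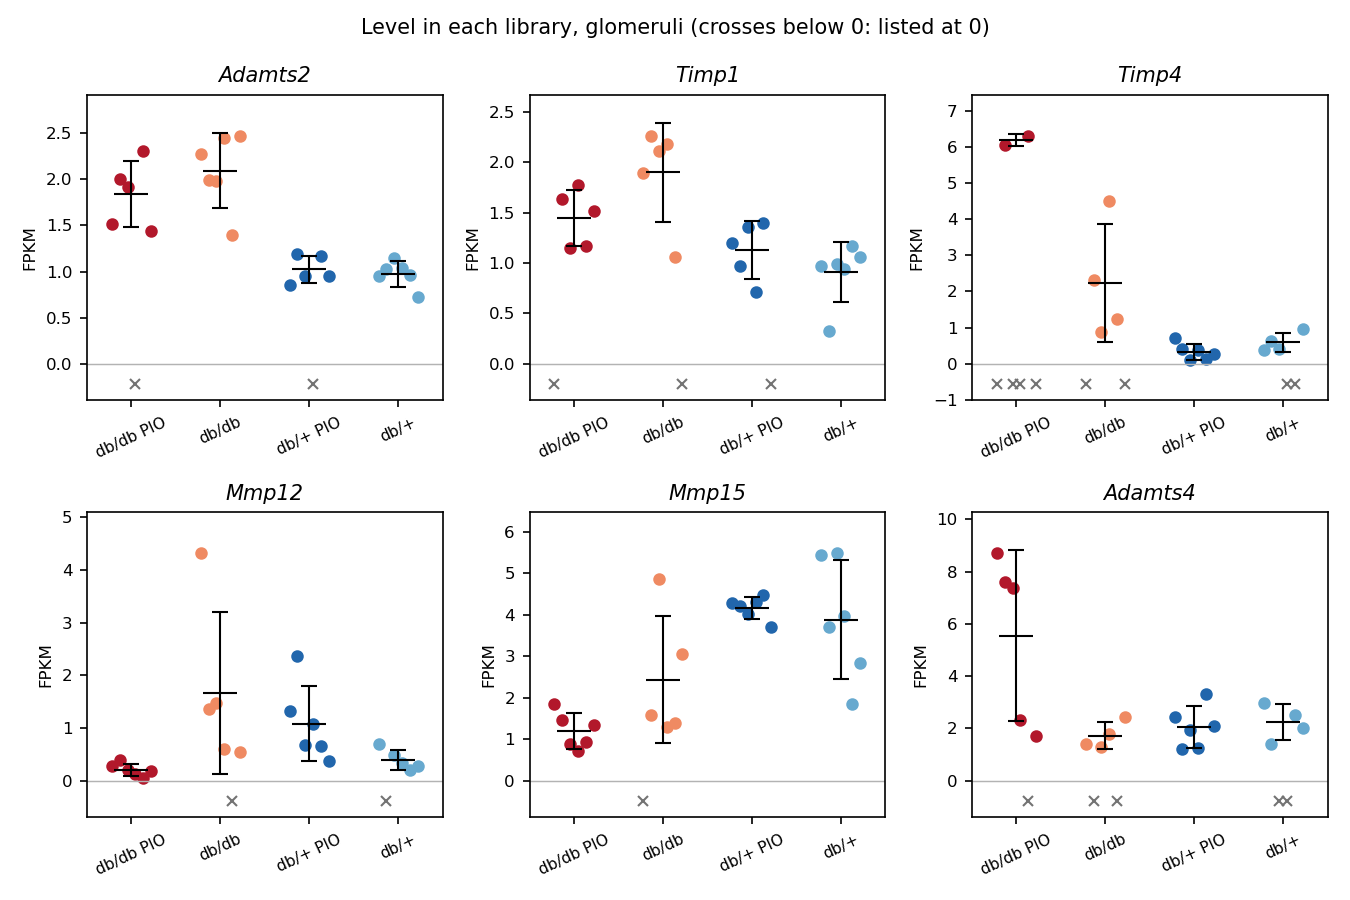
FPKM (vertical axis) of Adamts2, Timp1, Timp4, Mmp12, Mmp15 and Adamts4 in each glomerular library of the groups db/db PIO, db/db, db/+ PIO and db/+, with mean and SD of the libraries with a value and crosses for libraries listed at 0. Adamts2 was at 1.40 FPKM or more in every diabetic library with a value, and Mmp15 was between 0.71 and 1.84 FPKM in db/db PIO.

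Matrix substrates also changed in glomeruli, though not in step with all of these genes. Adamts2, for example, did not pass in limma for the drug in db/db (-0.12 ± 0.10, adjusted p = 0.405). Of 5 matrix substrates tested, 4 were higher in db/db over db/+, Dcn (decorin, 1.45), Vwf (the substrate of Adamts13, 0.88), Col1a1 (0.76) and Col3a1 (0.70), and the same 4 were lower in db/db PIO than in db/db, Dcn by the most (1.22 ± 0.441 against 7.10 ± 1.10 FPKM, -1.88, adjusted p = 0.000311). The median over the 5 substrates was -1.12 for the drug and 0.76 for diabetes, beside -0.035 and 0.04 over all genes. Both comparisons use the db/db libraries. Among 6 regulators tested, Lcn2, which binds Mmp9, was higher in db/db (2.15), and under the drug Lcn2 was lower (-1.52) and Spock2 higher (0.51). Of 3 ADAM proteases, 8 inducers and 1 ADAMTS-like gene tested in both comparisons, 0 were called by limma, and at an unadjusted p below 0.05 there were 2 ADAM proteases and 1 inducer for diabetes and 0 for the drug. Markers of the distal tubule and collecting duct, which is not glomerular tissue, were higher in db/db glomeruli in 9 of 9 tested and lower under the drug in 9 of 9, with sums of 22.87 to 75.4 FPKM in db/db PIO, 90.91 to 606.05 FPKM in db/db, 21.81 to 225.57 FPKM in db/+ PIO and 24.61 to 330.67 FPKM in db/+. Fibroblast markers, which include Dcn, Col1a1 and Col3a1, were higher in db/db in 3 of 3 and lower under the drug in 3 of 3, with sums of 1.23 to 17.23 FPKM in db/db PIO, 8.84 to 31.99 FPKM in db/db, 1.63 to 21.95 FPKM in db/+ PIO and 2.2 to 39.79 FPKM in db/+. Of 6 macrophage markers, 4 were lower under the drug, with sums of 21.41 to 80.62 FPKM in db/db PIO, 65.83 to 276.95 FPKM in db/db, 70.8 to 129.81 FPKM in db/+ PIO and 48.1 to 193.24 FPKM in db/+. Of 3 neutrophil markers, 2 were higher under the drug, with sums of 41.98 to 170.68 FPKM in db/db PIO, 15.3 to 82.47 FPKM in db/db, 3.73 to 44.96 FPKM in db/+ PIO and 8.63 to 39.34 FPKM in db/+. The part of these cells in the changes of Adamts2, Adamts4, Timp1, Timp4 and Mmp12 was not tested.

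In kidney cortex, all calls were lower in the diabetic or treated mice. In db/db over db/+, 2 of 9 genes passed, with 10.3% of all genes called and 6.01% called as lower. Mmp13, the main collagenase of rodents, had 0.16 to 0.66 FPKM in db/db (median 0.27), against 1.25 to 2.05 FPKM in db/+ (median 1.81). There was no overlap, the means were 0.330 ± 0.175 and 1.71 ± 0.366 FPKM (SD, n = 6 each), and the log2 fold change was -1.02 ± 0.10 (adjusted p = 2.48e-07). All 11 cortex libraries in which Mmp13 reached 1 FPKM were non-diabetic, so it passed the minimum only through the genotype in which it was high. Mmp15 had 0.50 to 1.06 FPKM in db/db (median 0.75) and 0.96 to 1.72 FPKM in db/+ (median 1.42), and fell by 0.42 on the log2 scale (SE 0.11, adjusted p = 0.0131), with groups that overlapped. Under quantile normalization of the values above 0 the adjusted p of Mmp15 was 0.136.

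Under pioglitazone, 3 of 11 genes passed in db/db cortex, with 3.24% of all genes called and 2.67% called as lower. Mmp11, a stromelysin-like MMP of stromal cells, had 0.57 to 1.29 FPKM in db/db PIO (median 0.91), against 1.71, 1.72, 1.80, 1.86 and 1.88 FPKM in db/db (-0.56 ± 0.13, adjusted p = 0.0308). Mmp12 had 0.11, 0.13, 0.14, 0.18 and 0.25 FPKM in db/db PIO, against 0.30 to 0.75 FPKM in db/db (-0.43 ± 0.11, adjusted p = 0.0469). Neither overlapped. Mmp2 had 0.04, 0.46, 0.55, 0.65 and 0.96 FPKM in db/db PIO, against 0.93 to 1.40 FPKM in db/db (-0.56 ± 0.15, adjusted p = 0.044), with an overlap of a single library. In cortex, 6 libraries reached 1 FPKM for Mmp2 and none of them was db/db PIO. Of the compared groups, only the one in which Mmp2 was high thus helped it past the minimum. These 3 calls stood close to the threshold. That of Mmp11 ended without db/db replicate 2 or 5 or db/db PIO replicate 2, 4, 5 or 6 (adjusted p 0.0502 to 0.0618). That of Mmp12 ended without any of 16 libraries (0.05 to 0.0893), that is each library but db/db replicates 4 and 6, db/+ PIO replicates 3 and 5 and db/+ replicates 1, 4, 5 and 6. That of Mmp2 ended without any of 14 libraries (0.0503 to 0.0896), that is each library but db/db PIO replicate 1, db/db replicate 6, db/+ PIO replicates 1, 3, 4 and 6 and db/+ replicates 1, 4, 5 and 6. In a fit of the compared groups alone the adjusted p was 0.0594 for Mmp12 and 0.0775 for Mmp2, without the minimum level it was 0.0563 for both, and for Mmp2 it was 0.0533 under median-of-ratios rescaling.

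In db/+ cortex the drug called 0 of 9 genes, beside 0.025% of all genes. At an unadjusted p below 0.05 in limma there were 103 of all 4004 genes and 1 of the 9, Mmp13 (0.00303), with 0.84 to 1.41 FPKM in db/+ PIO against 1.25 to 2.05 FPKM in db/+. The difference of the drug effect between genotypes was called for 0 of 9 genes, and for 0.031% of all genes, with 3 of the 9 and 292 of all 3228 genes at an unadjusted p below 0.05 in limma. Diabetic and non-diabetic cortex under the drug differed in 5 of 11 genes, all lower, with 19.7% of all genes called and 12.6% called as lower. Mmp12 had 0.11 to 0.25 FPKM in 5 db/db PIO libraries against 1.12 to 2.26 FPKM in db/+ PIO (-1.19 ± 0.11, adjusted p = 1.01e-06). All 7 cortex libraries in which Mmp12 reached 1 FPKM were non-diabetic, so it passed the minimum only through the genotype in which it was high. Mmp13 had 0.06 to 0.24 FPKM against 0.84 to 1.41 FPKM (-0.92 ± 0.10, adjusted p = 6.53e-07), and Mmp15 0.26 to 0.54 FPKM against 0.76 to 1.69 FPKM (-0.72 ± 0.11, adjusted p = 5.92e-05).

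Mmp11 and Adamts1 completed these 5. Mmp11 had 0.57 to 1.29 FPKM in db/db PIO, against 2.13, 2.30, 2.80, 3.60 and 4.0 FPKM in db/+ PIO (-1.04 ± 0.13, adjusted p = 3.39e-05). Adamts1 had 4.43, 4.50, 4.67, 5.51 and 5.72 FPKM in db/db PIO, against 6.50, 7.23, 8.38 and 8.46 FPKM in db/+ PIO (-0.53 ± 0.13, adjusted p = 0.00608), and turned to 0.07 when zeros were entered as values. No groups overlapped for any of these 5 called genes, and overlap was not counted over all genes. The untreated groups of Mmp12 could not be compared, since 4 of 6 db/+ libraries were at 0, and the other 2 had 0.93 and 1.44 FPKM, above all db/db libraries.

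**Figure D5:**
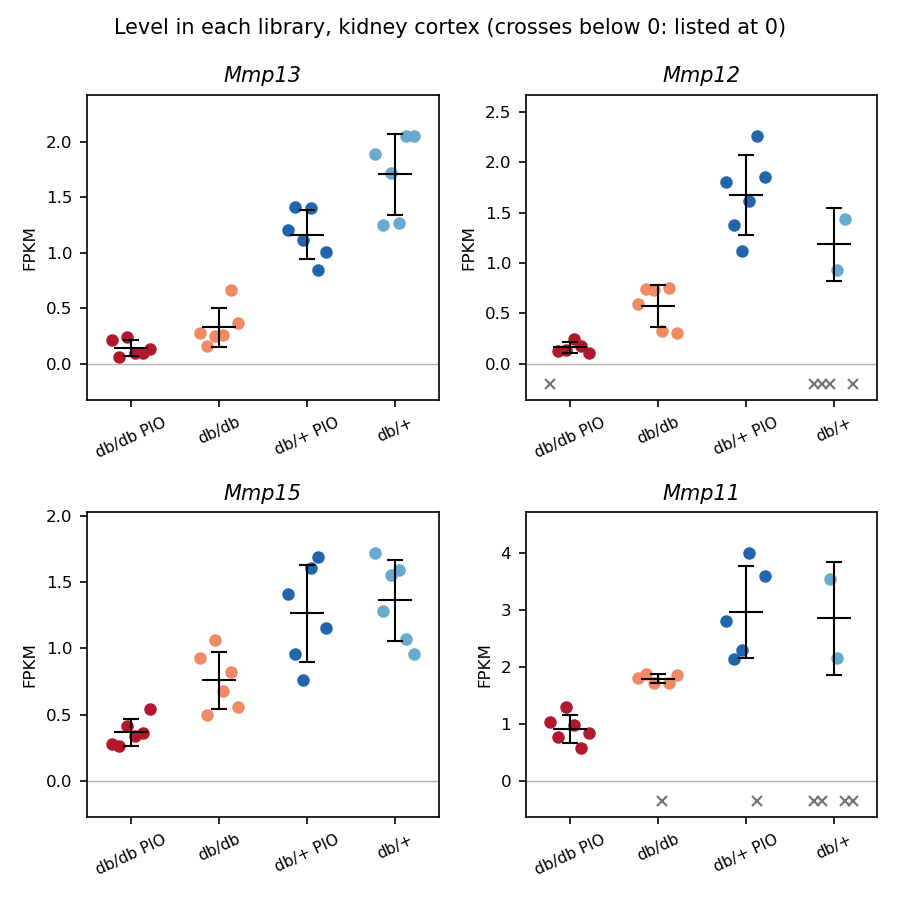
FPKM (vertical axis) of Mmp13, Mmp12, Mmp15 and Mmp11 in each cortex library of the groups db/db PIO, db/db, db/+ PIO and db/+, with mean and SD of the libraries with a value and crosses for libraries listed at 0. For each gene the db/db PIO libraries were the lowest as a group, such as 0.06 to 0.24 FPKM for Mmp13, and those of the non-diabetic groups were the highest.

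The inhibitors and Mmp9 were called in no comparison of cortex groups. Timp2 was in the range of 5.99 to 9.40 FPKM in db/db PIO, 8.50 to 10.93 FPKM in db/db, 6.75 to 10.57 FPKM in db/+ PIO and 7.77 to 10.39 FPKM in db/+. Timp1 was at most 0.80 FPKM, Timp4 at most 0.21 FPKM and Mmp9 at most 0.36 FPKM in any cortex library, and none of them was tested. Mmp9 had 0.03 to 0.15 FPKM in db/db PIO, 0.03 to 0.15 FPKM in 5 db/db libraries, 0.10 to 0.21 FPKM in db/+ PIO and 0.10 to 0.36 FPKM in db/+.

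Among regulators in cortex, 1 of 7 was lower in db/db over db/+, the pregnancy zone protein gene Pzp, a relative of A2m (3.13 ± 3.01 against 18.9 ± 7.44 FPKM, -2.41, adjusted p = 0.000206). Of 7 substrates, 2 were lower, Hapln1, the link protein of hyaluronan and proteoglycans (-0.79, adjusted p = 7.24e-07), and Dcn (-0.60). Of 8 inducers, Il1b (-0.68) and Tgfb1 (-0.35) were lower, and Tgfb1 was also lower in db/db PIO than in db/db (-0.63, adjusted p = 0.00309). Macrophage markers fell with these genes, 6 of 7 in db/db over db/+, 4 of 9 in db/db PIO over db/db and 7 of 8 in db/db PIO over db/+ PIO. Their sums were 25.43 to 43.64 FPKM in db/db PIO, 36.85 to 83.67 FPKM in db/db, 46.02 to 116.3 FPKM in db/+ PIO and 58.87 to 128.98 FPKM in db/+, and the part of macrophages in the changes of Mmp12, Mmp13 and the others was not tested.

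SCN and glomeruli were compared in a fit of both tissues. The paper describes RNA of all 4 tissues from groups of 6 mice, so libraries of both tissues may come from the same animals. No label ties a library to an animal, and the fit took the libraries as independent. The diabetes effect differed for 1 of 6 genes tested, Adamts2, whose log2 fold change in SCN minus that in glomeruli was -1.42 ± 0.34 (adjusted p = 0.00439), with 15.9% of all genes called. The effect of the drug in db/db mice differed for 3 of 4 genes tested, with 21.3% of all genes called. SCN minus glomeruli was 1.50 ± 0.30 for Mmp3 (adjusted p = 0.000316), 1.11 ± 0.37 for Adamts2 (adjusted p = 0.031) and -1.21 ± 0.33 for Adamts4 (adjusted p = 0.00791). Adamts2 had 3 values in each diabetic SCN group. Under quantile normalization of the values above 0 its differences were -0.51 (adjusted p = 0.248) for diabetes and 0.31 (adjusted p = 0.619) for the drug, and with the tested genes alone rescaled that for the drug was 0.55 (adjusted p = 0.215). In glomeruli, Mmp3 had 0.32 to 1.10 FPKM in db/db PIO (median 0.46) and 0.30 to 1.70 FPKM in db/db (median 1.34), a change of -0.40 ± 0.17 that did not pass (adjusted p = 0.0887). Mmp12, which was lower with the drug in db/db glomeruli, could not be compared for lack of values in SCN.

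The other genes were without calls. Of the 25 tested, 10 passed nowhere. Besides Timp2 and Timp3 these were Adamts12 (log2 fold changes of -0.09 to 0.48 in SCN and glomeruli), Adamts3 (-0.18 to 0.04, DRG), Adamts5 (-0.53 to 0.52, cortex), Mmp17 (-0.09 to 0.16, DRG and cortex), Mmp19 (-0.10 to 0.39, SCN), Mmp24 (-0.16, DRG), Mmp28 (-0.07, DRG) and Mmp8 (-0.29 to 0.22, DRG). The lowest adjusted p among these 10 was 0.142, for Adamts12. A further 18 genes could be tested in no tissue. Of these, Adamts13, Adamts16, Adamts18, Adamts19, Mmp10, Mmp20, Mmp21 and Mmp27 never reached 1 FPKM. Adamts6, Adamts17, Adamts20, Mmp7 and Mmp16 had highest values of 1.14, 1.20, 1.33, 2.57 and 2.07 FPKM, and Adamts7, Adamts9, Adamts14, Mmp23 and Mmp25 of 3.42, 3.24, 4.98, 8.77 and 7.13 FPKM. Adamts5, the aggrecanase that was tested in cortex, had 19.60 to 29.49 FPKM in 3 of 24 SCN libraries and 51.31 FPKM in 1 of 24 glomerular libraries, and was at 0 in the rest of both tissues.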

How the data were processed

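Total RNA of 4 tissues was sequenced by the authors as paired-end RNA-Seq, and reads were aligned with TopHat and Bowtie to the NCBI 37 (mm9) mouse genome. The deposited values are FPKM per gene symbol, which the authors computed with Cufflinks and wrote to 2 decimals. No read totals were used, so that the depth behind a value is unknown and no counting interval is given, and the authors' differential test, which needs reads, was not repeated. Groups were taken from the sample labels.

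FPKM were analysed as log2(FPKM + 1), with an exact 0 as missing. In the summed levels of marker lists an exact 0 added nothing. Per tissue, genes with at least 1 FPKM in at least 5 libraries and 3 values in both groups were tested in limma 3.58.1 (R 4.3.3), with moderated variances and a mean-variance trend, all 4 groups in a single fit, and Benjamini-Hochberg adjustment over all genes tested (threshold 0.05). SCN and glomeruli were compared in a joint fit without a term for the animal. The fit was tested on simulated data. Tables and figures were made with Python 3.11.15, pandas 2.3.3, numpy 2.4.6 and matplotlib 3.10.9. The members and gene lists were chosen with earlier results of these data known. Named are every Timp, every gene called between 2 groups, Mmp9, Mmp12 and, per tissue, the 3 genes with the highest median in db/+. The levels of Adamts5 were added after its values were seen, and the rest are listed with ranges. From each pathway list at most 4 called genes per comparison are named, by size of change, and some genes of these and the marker lists are not reported here. Promoters are from RefSeq (GRCm38.p6), and positions from the GENCODE annotation of NCBI 37.

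Alternatives were a pseudocount of 0.1, no minimum level, zeros as values, at least 5 values per group, median-of-ratios and quantile rescaling, a fit of 2 groups, no trend, array weights, a replicate block, and leaving out each library. Quantile rescaling over tested genes was added after seeing the data.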

Additional observations from a re-analysis of the deposited data

Results flagged for a closer look

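In 59 sets of libraries (a named gene in a group of at least 4 values), 3 had a library far from the others, which chance gives in about 1 of 20. Adamts8 had 3.63 FPKM in the lowest DRG db/db library, next to 5.76 FPKM. Mmp12 had 4.32 FPKM in the highest db/db library of the glomeruli, next to 1.47 FPKM, and Timp1 had 0.32 FPKM in the lowest db/+ library of the glomeruli, next to 0.94 FPKM.

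The drug effect differed between genotypes in limma (db/db minus db/+, on the log2 scale) for Mmp3 in SCN by 1.45 (adjusted p = 0.0198), for Adamts15 in SCN by 1.08 (0.0255), for Mmp9 in SCN by 1.05 (0.0435) and for Mmp12 in glomeruli by -1.51 (0.00916). Mmp12 passed the minimum in glomeruli only through db/db and db/+ PIO libraries, the groups in which it was high. Between tissues (SCN minus glomeruli), the diabetes effect differed for Adamts2 by -1.42 (0.00439). The drug effect in db/db mice differed between them for Mmp3 by 1.50 (0.000316), for Adamts2 by 1.11 (0.031) and for Adamts4 by -1.21 (0.00791).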

How the results depend on the processing

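Of the 41 calls, 38 were kept with a pseudocount of 0.1, 38 without a minimum level, 39 under median-of-ratios rescaling, 40 without a trend, 40 with array weights, 37 with the replicate block, 26 of 33 in fits of 2 groups, 29 of 29 with at least 5 values per group, 27 under quantile rescaling of tested genes (added after seeing the data), 18 under quantile rescaling of all values above 0 and 6 with zeros as values. Requiring at least 5 values changed which genes were tested, not their estimates. It could end a call still tested only through the adjustment, and the calls outside these 29 could no longer be tested. When each library was left out in turn, 28 of the 41 calls were always kept, 13 were lost at least once and 0 turned. Calls that held under every alternative were those of Mmp9 in SCN (diabetes), Mmp3 in SCN (diabetes under the drug), Mmp13 in cortex (both diabetes comparisons), and Mmp12 and Mmp15 in cortex (diabetes under the drug). Mmp9 in SCN and Mmp13 and Mmp15 in cortex were at 0 in no library, so zeros as values left their fold changes as they were. Mmp3 was at 0 in 1 SCN library. Mmp12 and Mmp13 in cortex passed the minimum only through the genotype in which they were high. The cause of the losses was not tested.

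Turned values were those of Adamts15 (0.18) and Adamts4 (0.29) in SCN for diabetes under quantile rescaling, and, with zeros as values and for diabetes under the drug, of Mmp14 in SCN (-0.38), Mmp15 in DRG (0.64) and Adamts1 in cortex (0.0726). With zeros as values the numbers of genes called were 1 (diabetes), 0 (drug in db/db), 1 (diabetes under the drug) and 0 (genotype by drug) in SCN, 0 in DRG for both diabetes comparisons, 0 in all comparisons of glomeruli, 1, 0 and 3 in cortex for diabetes, drug in db/db and diabetes under the drug, and 0 in both tissue differences. Under quantile rescaling they were 0 (drug in db/db) and 0 (genotype by drug) in SCN, 0 (diabetes) and 1 (under the drug) in DRG, 1 (diabetes) and 0 (genotype by drug) in glomeruli, and 1 (diabetes) and 0 (drug) in cortex, and over tested genes 2, 1 and 1 in SCN (diabetes, drug, genotype by drug), 1 in DRG (diabetes), 2 and 2 in glomeruli (diabetes, genotype by drug), 0 in cortex (drug) and 2 for the tissue difference in diabetes. Array weights gave 5 in SCN (genotype by drug), 4 in DRG (diabetes), 4 and 2 in glomeruli (diabetes under the drug, genotype by drug) and 4, 5 and 1 in cortex (diabetes, drug, genotype by drug). No minimum gave 4 and 4 in glomeruli (drug, diabetes under the drug) and 4 and 6 in the tissue differences (diabetes, drug). At least 5 values gave 1 and 1 in DRG (both diabetes comparisons), 1 in glomeruli (drug) and 0 and 1 in the tissue differences. A pseudocount of 0.1 gave 1 in SCN (drug). Fits of 2 groups gave 2 and 1 in glomeruli (diabetes, drug) and 1 in cortex (drug).

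Without single libraries the counts ranged, for diabetes, drug in db/db, diabetes under the drug and genotype by drug, over 2 to 4, 1 to 2, 2 to 5 and 2 to 4 in SCN, 1 to 2, 0 to 0, 1 to 3 and 0 to 0 in DRG, 2 to 5, 1 to 4, 2 to 3 and 1 to 2 in glomeruli, and 2 to 4, 0 to 4, 5 to 6 and 0 to 1 in cortex. For the drug in db/+ mice they were 0 to 1 in SCN and 0 elsewhere, and for the tissue differences 0 to 1 (diabetes) and 2 to 3 (drug).

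Same-numbered libraries of different groups deviated together (correlation over 0.1) in 20 of 36 pairs of glomeruli, 11 of 36 of cortex, 15 of 33 of DRG and 10 of 36 of SCN, beside 54 of 180, 53 of 180, 49 of 165 and 50 of 180 pairs with different numbers in these tissues. In no tissue did every pair do so and no label ties the numbers, so they were not read as pairs, although same-numbered pairs did so more often in glomeruli and DRG. With the replicate block the calls of Adamts15 (diabetes, adjusted p = 0.0972) and Mmp15 (diabetes under the drug, 0.107) in DRG and of Mmp11 (0.0516) and Mmp12 (0.0718) in cortex (drug in db/db) were lost. The numbers called were 1 in DRG (diabetes) and 1 in cortex (drug in db/db), and elsewhere within 1.5 times of those without it.

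Rescaling also moved the all-gene picture. The share of higher among all calls was 51.2% for diabetes in SCN, against 97.8% (quantile), 72.3% (quantile, tested genes) and 19.5% (zeros as values). It was 64.9% for diabetes in glomeruli, against 48.9% (median-of-ratios), and 31.1% for the drug there, against 59.1%, and for the drug in cortex 17.5%, against 40.0%. Levels near the 2 decimals of the files and genes listed at 0 limit what can be compared.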
